A study of Mus musculus with 233 samples.

Results

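The genes described here encode neurotrophins and the receptors that bind them: the ligands Bdnf and Ntf3, the receptor tyrosine kinases Ntrk2 (TrkB) and Ntrk3 (TrkC), the p75 receptor Ngfr, and the sortilin family receptors Sort1 and Sorcs2. They were chosen by symbol and matched to Ensembl identifiers, 7 of the 41129 genes in the deposited table. RNA came from the striatum of mice heterozygous for zQ175DN, a knock-in allele in which mouse Htt exon 1 is replaced by the human exon with an expanded CAG tract, and of wild type (WT) littermates. Each hemisphere received 1 AAV2/2+1 virus. The virus called nZFP expresses an HA-tagged zinc finger repressor aimed at expanded CAG repeats, driven by the neuronal human synapsin promoter. DBD expresses the same kind of protein without its DNA binding domain, from the same promoter, and Estop carries a stuffer and encodes no protein. Every group, the WT and control virus groups included, was thus injected and carried an AAV genome, and no uninjected mice are analysed here.

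Mice were injected at 2 or 6 months and collected in 5 cohorts, each named by both ages: 2M_6M, 2M_8M, 6M_8M, 6M_10M and 6M_12M, which gave 4, 6, 2, 4 and 6 months of treatment. The 2 genotypes, 3 viruses and 5 cohorts make 30 groups of 6 to 8 libraries and 233 libraries in all, from both sexes. Of 120 mice, 113 gave 2 libraries, 1 per hemisphere and each with a different virus, so the libraries of a cohort are not all independent animals. The tissue is bulk striatum, in which fewer cells of a type and less RNA per cell cannot be told apart. The comparisons ask how the mutant allele changes these genes under each virus and whether the repressor changes them in either genotype.

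BDNF reaches the striatum mainly by transport along axons from the cortex and the substantia nigra, and striatal neurons, which make little of it themselves, respond through TrkB. NT-3 acts through TrkC. p75 binds all mature neurotrophins with low affinity and, together with sortilin or SorCS2, binds the uncleaved proneurotrophins, while sortilin also sorts proBDNF inside the cell.

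Gene counts per library summed to 27993215 at the lowest and 61296071 at the highest, with a median of 37385953, and entries for the viral vectors took at most 0.669% of a library. The medium spiny neuron marker Ppp1r1b (DARPP-32) stood at 1431 to 5687 counts per 1000000 counted reads (CPM) and all 10 markers of these neurons, the main cell type of the striatum, were above 0 in every library. In 4 libraries the vector entries went against the label: those labelled WT DBD replicates 7 and 8 and zQ175 nZFP replicate 5 of 6M_8M, and WT DBD replicate 6 of 2M_6M. A length index was computed for each library as the median deviation of long genes (at least 4973 bases) minus that of short genes (at most 2330 bases) on the log2 scale. It set apart zQ175 DBD replicate 3 of 2M_6M (-1.37), zQ175 nZFP replicate 2 of 6M_10M (-1.42) and WT DBD replicate 2 of 6M_10M (-1.22). Many results resting on these groups are given with and without these libraries, and the others with them only. Htt, the targeted gene, was lower in zQ175 than in WT under each virus (average log2 differences -0.63 under nZFP, -0.43 under DBD and -0.49 under Estop). The average of nZFP minus DBD for Htt was -0.20 in zQ175 (adjusted p 0.0583) and 0.01 in WT (adjusted p 0.978). The count is of the whole gene and does not separate the alleles.

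Promoter sequences are shown because the 5 receptors were called together in the comparisons given further on and because Bdnf has many start sites. The RefSeq table (build GRCm38.p6, windows of 250 bases before to 50 bases after a start) held 11 promoters of 4 members: 7 of Bdnf, 2 of Ntf3, 1 of Ngfr and 1 of Ntrk2. Ntrk3, Sort1 and Sorcs2 are named only. The half-site of the cAMP response element, TGACG, searched on both strands, was found in 1 of the 11 windows and in 20.8% of 32851 promoters in the table. That window belongs to Bdnf at chr2:109692186-109692485 (plus strand, 48.7% G and C), where capitals mark the half-site, read here as its reverse complement.
Bdnf: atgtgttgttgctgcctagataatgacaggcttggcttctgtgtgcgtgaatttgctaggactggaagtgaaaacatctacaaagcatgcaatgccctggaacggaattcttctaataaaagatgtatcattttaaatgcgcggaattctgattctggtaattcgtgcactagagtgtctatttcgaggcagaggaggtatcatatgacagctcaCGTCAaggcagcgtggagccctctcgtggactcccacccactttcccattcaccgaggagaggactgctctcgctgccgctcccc
The Ngfr window at chr11:95587649-95587948 (minus strand) was the richest in G and C of the 11, at 71.7%, and the Ntrk2 window at chr13:58806319-58806618 (plus strand) had 61.3%. Neither held the half-site, so these have no capitals.
Ngfr: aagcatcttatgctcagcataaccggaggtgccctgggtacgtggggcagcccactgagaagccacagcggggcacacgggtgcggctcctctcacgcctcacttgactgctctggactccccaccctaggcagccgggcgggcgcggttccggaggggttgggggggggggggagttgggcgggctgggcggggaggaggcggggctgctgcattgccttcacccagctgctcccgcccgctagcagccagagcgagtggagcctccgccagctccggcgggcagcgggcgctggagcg
Ntrk2: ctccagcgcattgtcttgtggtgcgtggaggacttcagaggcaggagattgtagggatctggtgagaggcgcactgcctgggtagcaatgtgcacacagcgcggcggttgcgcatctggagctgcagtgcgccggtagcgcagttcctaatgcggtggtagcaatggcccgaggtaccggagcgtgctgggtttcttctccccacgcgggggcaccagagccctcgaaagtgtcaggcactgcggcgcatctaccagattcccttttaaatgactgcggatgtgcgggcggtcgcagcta
The full element TGACGTCA was in none of the 11 windows and in 1.79% of all promoters. The triplet run CAGCAGCAG, a stretch of the repeat type that the repressor is aimed at, was likewise in none of the 11 windows and in 1.82% of all promoters. Such matches describe letters only.

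The members differed in level by several orders of magnitude. On the TPM scale, which allows for gene length, Sort1 had a median of 162 TPM over the 233 libraries, Ntrk2 151 TPM, Sorcs2 39.9 TPM and Ntrk3 27.2 TPM. Ngfr had a median of 1.77 TPM, Bdnf 0.220 TPM and Ntf3 0.0474 TPM. The ranges of Sort1 and Ntrk2 overlapped widely, as did those of Sorcs2 and Ntrk3, so these neighbours in the order are not separated by their spread. The medians of the 2 ligands thus stood below those of all 5 receptors, although the highest libraries of both overlapped the range of Ngfr. Bdnf reached 0.981 TPM and Ntf3 2.23 TPM, while the lowest Ngfr library had 0.532 TPM. Bdnf was counted at 1 to 60 per library (median 15). Ntf3 summed to 508 counts over all libraries and was at 0 in 76 of them, too few to enter any test.

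**Figure D1:**
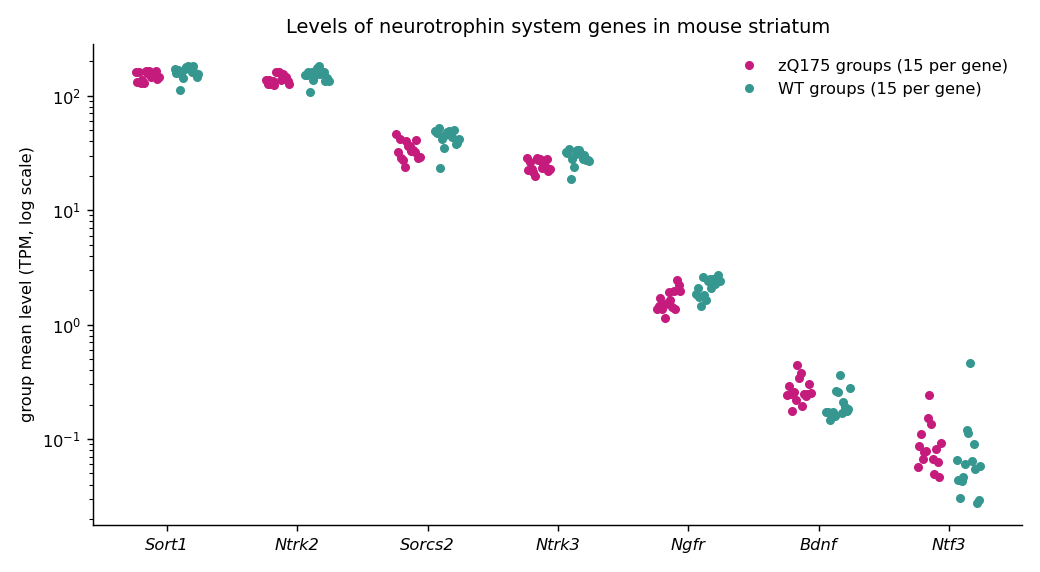
Mean TPM of each of the 7 genes in each of the 30 groups on a log10 axis, with zQ175 groups left of WT groups and cohorts in order. Sort1 and Ntrk2 lie highest (medians 162 and 151 TPM), Ntf3 lowest (0.0474 TPM).

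Within groups the coefficient of variation had a median of 11.1% for Sort1, 12.1% for Ntrk2, 15.1% for Ntrk3, 18.6% for Sorcs2, 22.2% for Ngfr and 44.9% for Bdnf. Between groups, normalised CPM spanned a narrow range for the abundant receptors. Sort1 was lowest in zQ175 DBD 2M_6M (383 ± 119 CPM, SD, n = 7) and highest in WT Estop 6M_10M (539 ± 33.3 CPM, n = 8), a ratio of highest to lowest of 1.41. Ntrk2 ranged between 441 ± 84.8 CPM in zQ175 DBD 2M_6M (n = 7) and 590 ± 124 CPM in WT DBD 6M_10M (n = 8), a ratio of 1.34. The lowest group of both holds the library with the low length index. Without it that group averaged 427 ± 31.4 CPM for Sort1 and 469 ± 48.6 CPM for Ntrk2 (n = 6 each), and the lowest groups were then WT nZFP 2M_8M for Sort1 (408 ± 46.1 CPM, n = 8) and zQ175 Estop 2M_6M for Ntrk2 (455 ± 31.8 CPM, n = 8). The Ntrk2 mean of WT DBD 6M_10M was 630 ± 53.1 CPM without its outlying library (n = 7). Sort1 and Ntrk2 had the smallest spread within groups of the members.

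The 3 less abundant receptors spanned more. Sorcs2 averaged 66.7 ± 20.6 CPM in zQ175 Estop 2M_8M (n = 8) and 135 ± 16.7 CPM in WT Estop 2M_6M (n = 7), a ratio of 2.03. Ntrk3 had its extremes in the same 2 groups, at 26.2 ± 3.47 CPM in zQ175 Estop 2M_8M and 42.6 ± 3.07 CPM in WT Estop 2M_6M (ratio 1.63). Ngfr was lowest in zQ175 Estop 2M_8M (1.95 ± 0.602 CPM, n = 8) and highest in WT DBD 6M_12M (4.94 ± 1.20 CPM, n = 7), a ratio of 2.54. For all 3 of these receptors the lowest group was zQ175 and the highest was WT.

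The genes lie on 7 chromosomes of GRCm38 and all are protein coding. Bdnf (ENSMUSG00000048482) spans chr2:109674700-109727007 and Ntf3 (ENSMUSG00000049107) spans chr6:126101412-126166910. Ntrk2 (ENSMUSG00000055254) spans chr13:58806569-59133970 and Ntrk3 (ENSMUSG00000059146) spans chr7:78175959-78738012. Ngfr (ENSMUSG00000000120) spans chr11:95568818-95587735, Sort1 (ENSMUSG00000068747) spans chr3:108284082-108361511 and Sorcs2 (ENSMUSG00000029093) spans chr5:36017180-36398139. Antisense genes overlap Bdnf, Ntrk2, Ntrk3 and Sort1, and the opposite-strand genes Psapl1 and Mir7689 overlap Sorcs2. Whether the counting used strand is not stated, and reads of these partners may not be fully separated. Sorcs2 lies 1.1 Mb from Htt on the same chromosome. Among genes within 2 Mb of Htt 38.9% passed the genotype test under DBD in 2M_6M, against 28.7% of all genes tested there. That window includes Htt and Sorcs2 themselves, both called in that test. Under Estop in 2M_6M the shares were closer, at 22.2% near Htt and 19.4% of all genes. Whether the linked chromosome segment has a part in the Sorcs2 result was not tested.

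**Figure D2:**
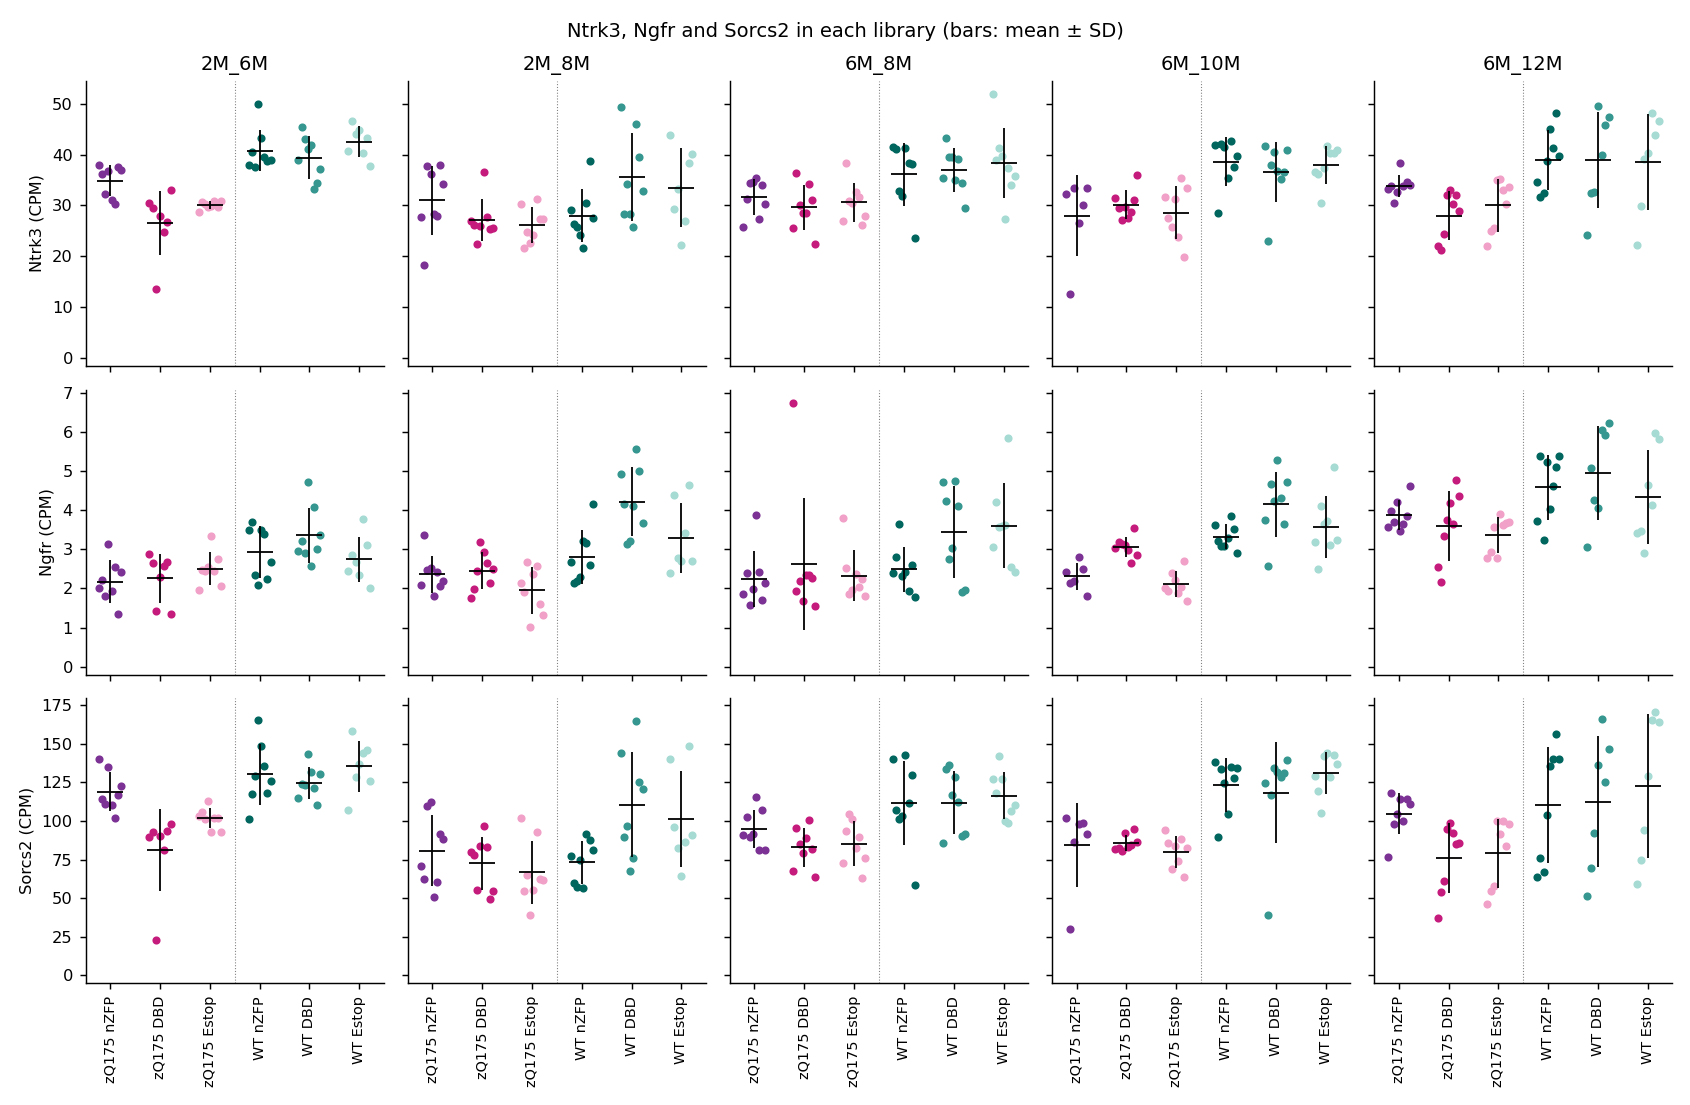
Normalised CPM of Ntrk3, Ngfr and Sorcs2 in every library by group, with bars for the mean ± SD. Points of zQ175 libraries under DBD and Estop lie mostly below those of WT, as in 2M_6M, where Ntrk3 under DBD reached 33.0 CPM in zQ175 and began at 33.3 CPM in WT.

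Under the control viruses the receptors were lower in zQ175 striatum. Of the 30 tests of 6 members in 5 cohorts under DBD, 13 were called at an adjusted p under 0.05 (edgeR quasi-likelihood test, Benjamini-Hochberg over all genes of the cohort), all lower in zQ175. Among all genes tested, 11.5%, 9.37%, 5.15%, 12.3% and 9.14% were called lower in the 5 cohorts in order. Under Estop, 10 of 30 were called, again all lower, against 9.28%, 8.53%, 6.64%, 11.1% and 8.92% of all genes. The calls fell on Ntrk3, Ngfr and Sorcs2, and on Ntrk2 in 2M_6M. Averaged over the cohorts, all 5 receptors were called lower under both viruses, with 22.0% and 22.5% of all genes called lower under DBD and Estop. The DBD and Estop comparisons use separate libraries of both genotypes, although the fit shares 1 estimate of spread. Part of these libraries are opposite hemispheres of the same mice, so the 2 comparisons are not independent.

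Ntrk3, the receptor for NT-3, fell in zQ175 in 4 cohorts under DBD and 3 under Estop. In 2M_6M under DBD it had a lowest, median and highest value of 13.6, 28.0 and 33.0 CPM in zQ175 (n = 7), against 33.3, 40.0 and 45.3 CPM in WT (n = 8). The groups did not overlap, and one zQ175 library, the one with the low length index, lay far below the other 6. The log2 difference was -0.57 (SE 0.09, adjusted p 6.73e-06). It was -0.47 without that library (adjusted p 5.72e-07) and -0.62 without the library labelled WT DBD whose vector entries went against its label (adjusted p 2.95e-06). Under Estop in 2M_6M Ntrk3 had 28.7, 30.0 and 30.9 CPM in zQ175 (n = 8), against 37.8, 43.3 and 46.7 CPM in WT (n = 7). These groups did not overlap either, and the zQ175 libraries were packed within a narrow band (SD 0.736 CPM). The log2 difference was -0.49 (adjusted p 7.94e-05).

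In the later cohorts the Ntrk3 difference under DBD was -0.39 in 2M_8M (adjusted p 0.0484), -0.33 in 6M_8M (0.0318), -0.29 in 6M_10M (0.102) and -0.48 in 6M_12M (0.0124). Without the outlying libraries the 6M_10M value became -0.36 (adjusted p 0.00117), and without the libraries that went against their labels the 6M_8M value became -0.39 (adjusted p 0.00859). Under Estop it was -0.36 in 2M_8M (0.09), -0.31 in 6M_8M (0.0317), -0.41 in 6M_10M (0.0153) and -0.37 in 6M_12M (0.0683). The average over cohorts was -0.41 (SE 0.06, adjusted p 7.05e-11) under DBD and -0.39 (SE 0.06, adjusted p 4.22e-10) under Estop. The 2M_8M call under DBD was lost with no filter on low counts (adjusted p 0.0637) and with hemisphere in the model (0.0502), and the 6M_8M call with no filter (0.0515).

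Ntrk2, the receptor for BDNF and the more abundant Trk gene here, differed less. In 2M_6M under DBD it had 277, 455 and 548 CPM in zQ175 (n = 7), against 475, 541 and 658 CPM in WT (n = 8). The groups overlapped, with the lowest zQ175 value again in the library with the low length index. Ntrk2 fell by 0.32 on the log2 scale (adjusted p 0.00433), by 0.24 without that library (adjusted p 0.0119) and by 0.36 without the WT library that went against its label (adjusted p 0.00193). Under Estop it had 382, 460 and 483 CPM in zQ175, against 483, 588 and 655 CPM in WT, and the groups met at their edges. The difference under Estop was -0.32 (adjusted p 0.00497). In the other 4 cohorts Ntrk2 differences lay between -0.26 and -0.11 under either virus and none passed the test. The averages were -0.20 (SE 0.05, adjusted p 6.69e-05) under DBD and -0.24 (SE 0.05, adjusted p 1.78e-06) under Estop. The gene-level count does not separate the full-length TrkB from the truncated form without a kinase domain, which is known to be common in astrocytes.

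Ngfr, the p75 receptor, fell in zQ175 in 4 cohorts under DBD and 2 under Estop. In 2M_8M under DBD it had 1.75, 2.47 and 3.17 CPM in zQ175 (n = 8), against 3.12, 4.13 and 5.56 CPM in WT (n = 8). Only the top of the zQ175 range reached the bottom of the WT range. The log2 difference was -0.78 (SE 0.17, adjusted p 0.000608). In 6M_10M under Estop Ngfr had 1.67, 2.02 and 2.71 CPM in zQ175, against 2.49, 3.44 and 5.10 CPM in WT (n = 8 each). Most zQ175 libraries lay below every WT library, and the log2 difference was -0.76 (adjusted p 1.18e-06).

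The other Ngfr differences under DBD were -0.55 in 2M_6M (adjusted p 0.0112), -0.42 in 6M_8M (0.293), -0.44 in 6M_10M (0.0027) and -0.47 in 6M_12M (0.02). Under Estop they were -0.14 in 2M_6M (0.63), -0.76 in 2M_8M (0.0017), -0.61 in 6M_8M (0.0637) and -0.34 in 6M_12M (0.12). The 2M_6M value under DBD was -0.46 (adjusted p 0.0314) without the outlying library and -0.49 (adjusted p 0.028) without the WT library that went against its label. Without all libraries that went against their labels, the 6M_8M values became -0.60 under DBD (adjusted p 0.0587) and -0.63 under Estop (adjusted p 0.034). In 6M_8M under DBD zQ175 replicate 1 had 6.74 CPM, far above the zQ175 median of 2.22 CPM. The averages were -0.53 under each virus (SE 0.08 each, adjusted p 1.12e-09 under DBD and 1.87e-09 under Estop). Among WT DBD groups the median of Ngfr was 5.08 CPM in 6M_12M and 3.11 CPM in 2M_6M, a contrast of cohorts in which collection age, injection age and any processing by cohort cannot be told apart.

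Sorcs2, a partner of p75 in proneurotrophin binding, fell in 4 cohorts under each virus. In 2M_6M under DBD it had 22.7, 90.2 and 97.8 CPM in zQ175 (n = 7), against 110, 124 and 143 CPM in WT (n = 8). The groups did not overlap, with or without the lowest zQ175 library. The log2 difference was -0.63 (SE 0.13, adjusted p 0.000644), -0.47 without that library (adjusted p 7.77e-06) and -0.65 without the WT library that went against its label (adjusted p 0.000863). In 6M_10M under Estop Sorcs2 had 63.7, 83.3 and 94.3 CPM in zQ175, against 105, 133 and 144 CPM in WT (n = 8 each). These groups did not overlap either, and the log2 difference was -0.70 (adjusted p 0.00103).

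For the remaining cohorts Sorcs2 differed under DBD by -0.61 in 2M_8M (adjusted p 0.0218), -0.44 in 6M_8M (0.0137), -0.47 in 6M_10M (0.0317) and -0.57 in 6M_12M (0.107). Under Estop the values were -0.40 in 2M_6M (0.0351), -0.61 in 2M_8M (0.0262), -0.43 in 6M_8M (0.0103) and -0.64 in 6M_12M (0.0668). Under DBD the 6M_8M value was -0.53 (adjusted p 0.00234) without the libraries that went against their labels, and the 6M_10M value was -0.60 (adjusted p 1.3e-08) without the outlying libraries. The 2M_6M Estop call was lost with no filter on low counts (adjusted p 0.0593). In 6M_12M the spread within groups was wide: under DBD zQ175 libraries had 36.9, 85.7 and 98.6 CPM (n = 8), against 51.2, 125 and 166 CPM in WT (n = 7). The averages of Sorcs2 were -0.54 (SE 0.08, adjusted p 2.33e-09) under DBD and -0.56 (SE 0.08, adjusted p 6.09e-10) under Estop.

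Sort1, sortilin, passed in no single cohort. Its differences lay between -0.31 and -0.14 under DBD and between -0.26 and -0.15 under Estop. In 2M_6M under DBD it had 121, 423 and 469 CPM in zQ175 (n = 7), against 428, 460 and 533 CPM in WT (n = 8). The groups overlapped, and the low zQ175 value was again that of the library with the low length index. The log2 difference was -0.31 (adjusted p 0.0565), and -0.16 (adjusted p 0.0504) without it. Sort1 was called lower in the averages, at -0.19 (SE 0.05, adjusted p 0.000434) under DBD and -0.20 (SE 0.05, adjusted p 0.000318) under Estop. Without the outlying libraries it also passed in 6M_10M, at -0.25 under DBD (adjusted p 0.000151) and -0.28 under Estop (adjusted p 2.16e-05).

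**Figure D3:**
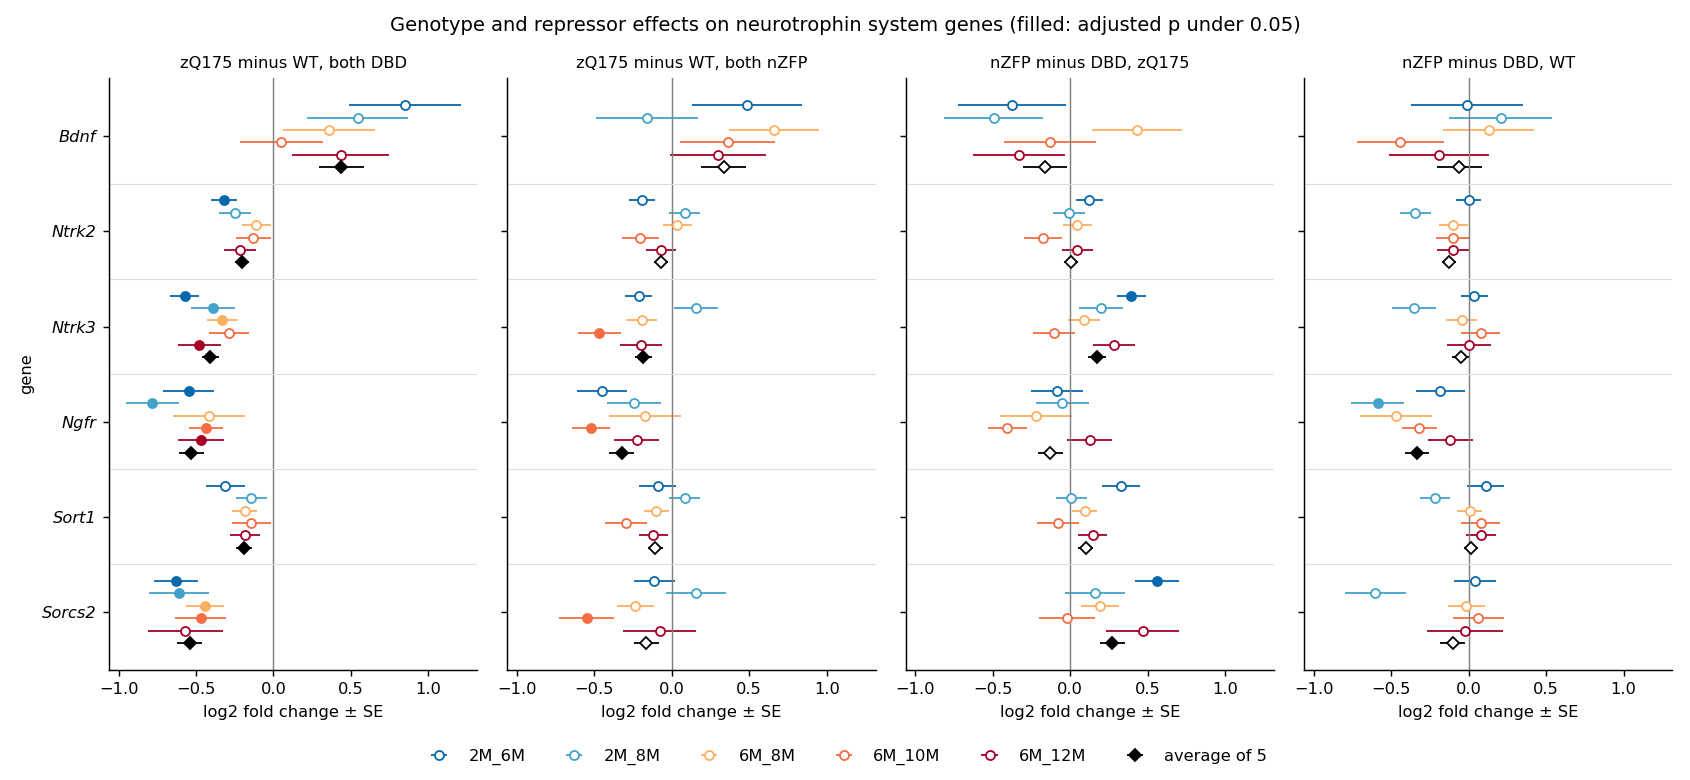
Log2 differences ± SE of 6 members by cohort (circles) and averaged over cohorts (diamonds), for zQ175 minus WT under DBD and under nZFP and for nZFP minus DBD in each genotype, with filled symbols for an adjusted p under 0.05. Ntrk3, Ngfr and Sorcs2 lie below 0 in every cohort under DBD, with averages of -0.41, -0.53 and -0.54, and Bdnf lies above 0 in every cohort under DBD.

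Of the ligands only Bdnf could be tested, and it was called lower in no cohort. It had 0.175, 0.554 and 1.31 CPM in zQ175 DBD 2M_6M (n = 7), against 0.208, 0.321 and 0.464 CPM in WT DBD 2M_6M (n = 8). The groups overlapped, and the highest zQ175 value was that of the library with the low length index. The log2 difference was 0.85 (SE 0.36, adjusted p 0.0706), and 0.50 (adjusted p 0.322) without that library. In the other cohorts Bdnf differed by 0.54, 0.36, 0.05 and 0.43 under DBD, none of which passed. The average under DBD was 0.44 (SE 0.14, adjusted p 0.00716), with 24.9% of all genes called higher, and Bdnf was the 1 member called higher in zQ175. It was 0.40 (adjusted p 0.0141) without the outlying libraries. Under Estop the Bdnf average was 0.19 (SE 0.14, adjusted p 0.28), with cohort values of 0.59, 0.40, 0.04, 0.29 and -0.28. These rest on a median of 15 counts per library, so the depth limits them.

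**Figure D4:**
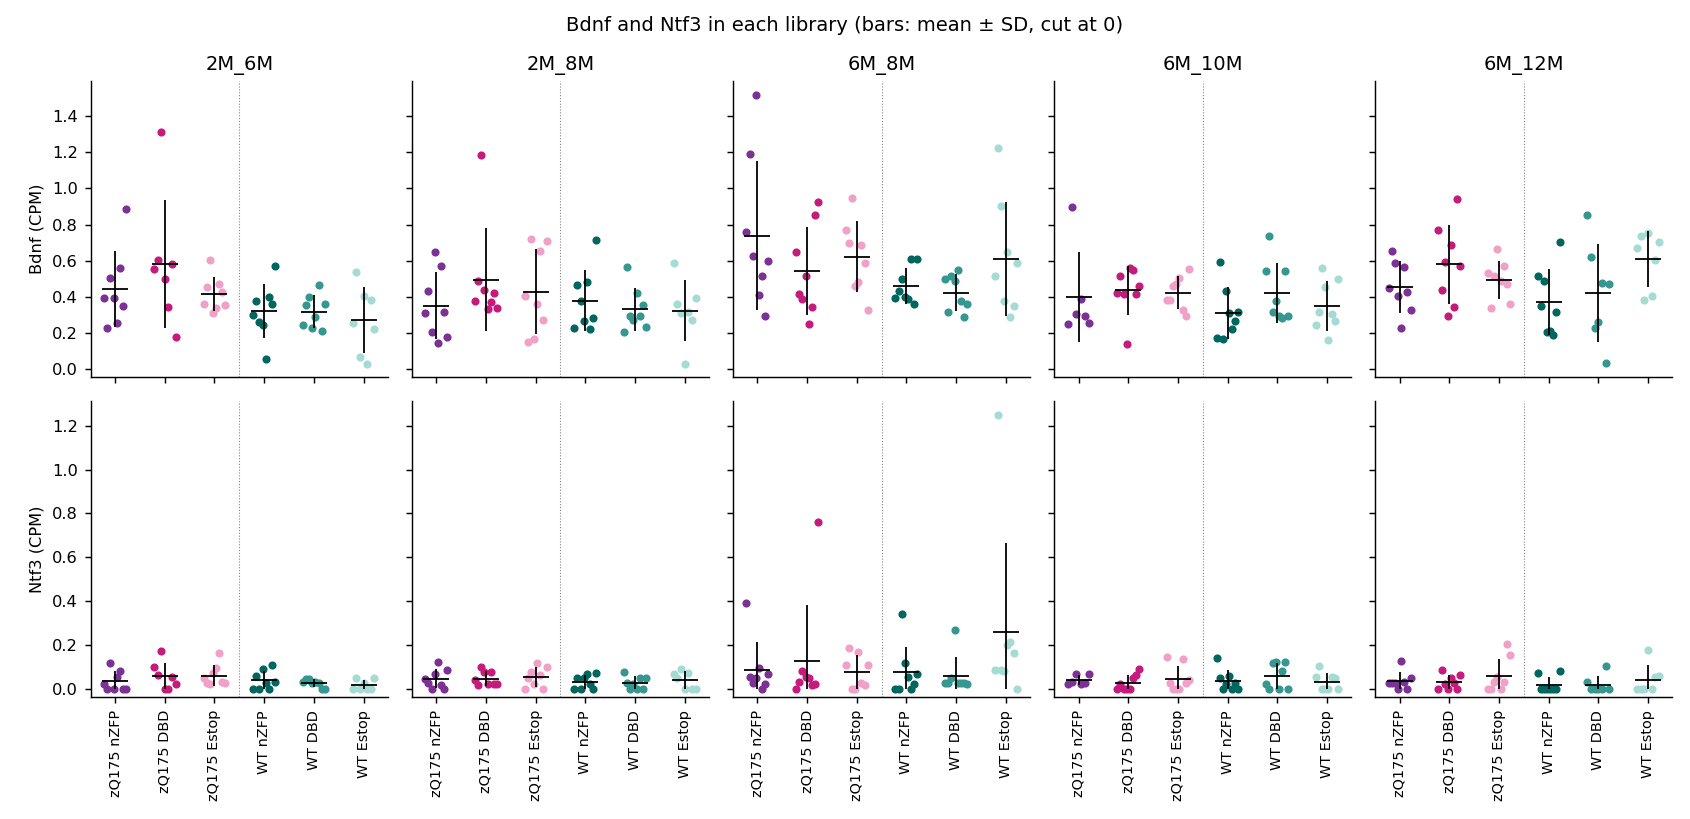
Normalised CPM of Bdnf and Ntf3 in every library by group, with bars for the mean ± SD cut at 0. Most values lie near the floor of detection, Bdnf reaches 1.52 CPM and Ntf3 1.249 CPM in single libraries of 6M_8M, and Ntf3 is at 0 in 76 libraries.

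Bdnf and Ntf3 were highest in the 6M_8M cohort. There Bdnf had a median of 0.507 CPM, against 0.352 to 0.482 CPM in the other 4 cohorts, and Ntf3 summed to 226 counts, against 54 to 85 counts. Bdnf is known to be made by cortical projection neurons. The summed level of 10 cortical projection neuron markers had medians of 18.3 to 32.1 CPM by cohort and was never above 54.8 CPM outside 6M_8M, where it reached 145 CPM. The zQ175 nZFP 6M_8M libraries with the most Bdnf, replicates 4 and 2 (1.52 and 1.19 CPM), ranked 2 and 3 of 233 in that sum, at 94.4 and 79.3 CPM. Other libraries high in Bdnf differed widely in that rank. WT Estop replicate 2 of 6M_8M (1.23 CPM) ranked 21, zQ175 DBD replicate 7 of 6M_12M (0.941 CPM) ranked 13 and zQ175 DBD replicate 8 of 6M_8M (0.927 CPM) ranked 30. Lower in that sum were zQ175 DBD replicate 3 of 2M_6M (1.31 CPM), which ranked 81, and zQ175 DBD replicate 3 of 2M_8M (1.19 CPM), which ranked 201. The zQ175 Estop 6M_8M library that ranked 1 (145 CPM) had 0.949 CPM of Bdnf. The library with the most Ntf3, WT Estop 6M_8M replicate 2 (53 counts, 1.249 CPM), ranked 21, at 35.4 CPM. The 10 markers summed to medians of 29.5 CPM in zQ175 DBD 2M_6M, against 28.0 CPM in WT DBD 2M_6M. In the genotype average under DBD 5 of the 10 were called higher and 1 lower, with a median of 0.42 against 0.01 for all genes. No marker of this list was at 0 throughout a group. Their part in the Bdnf average was not tested.

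Under the repressor virus fewer member differences between genotypes passed. Of 30 tests 3 were called, all lower in zQ175 and all in 6M_10M, against 9.28% of all genes called lower there and 0.664%, 2.62%, 9.18% and 8.75% in 2M_6M, 2M_8M, 6M_8M and 6M_12M. Ngfr had 1.82, 2.30 and 2.80 CPM in zQ175 nZFP 6M_10M (n = 6), against 2.90, 3.25 and 3.85 CPM in WT nZFP 6M_10M (n = 8). The groups did not overlap, and the log2 difference was -0.52 (SE 0.12, adjusted p 0.00177). Ntrk3 differed by -0.47 (SE 0.14, adjusted p 0.0135) and Sorcs2 by -0.55 (SE 0.18, adjusted p 0.0249) in that cohort. Without the outlying libraries these became -0.32 for Ntrk3 (adjusted p 0.0134) and -0.38 for Sorcs2 (adjusted p 0.000621), while Ngfr was -0.50 (adjusted p 0.00167).

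In the averages under nZFP, Ntrk3 was lower by -0.18 (SE 0.06, adjusted p 0.00483) and Ngfr by -0.32 (SE 0.08, adjusted p 0.00037), with 17.0% of all genes called lower. Sorcs2 averaged -0.17 (SE 0.08, adjusted p 0.0998), Ntrk2 -0.07 (0.22) and Sort1 -0.11 (0.0728). Bdnf averaged 0.33 (SE 0.15, adjusted p 0.0601), which became 0.35 (adjusted p 0.0474) without the libraries that went against their labels. In 2M_8M the differences of Ntrk3 (0.16), Sorcs2 (0.15), Ntrk2 (0.08) and Sort1 (0.08) were above 0, and none passed. The mean length index differed there, at -0.267 in WT nZFP 2M_8M against -0.032 in zQ175 nZFP 2M_8M.

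The direct contrast of nZFP with DBD in zQ175 gave 2 calls of 30, both higher under the repressor and both in 2M_6M, where 8.8% of all genes were called higher. In the other cohorts 4.16%, 0.0437%, 0.562% and 0.676% were. Sorcs2 had 102, 116 and 140 CPM in zQ175 nZFP 2M_6M (n = 8), against 22.7, 90.2 and 97.8 CPM in zQ175 DBD 2M_6M (n = 7). The groups did not overlap, with or without the lowest DBD library. Sorcs2 rose by 0.56 on the log2 scale (SE 0.14, adjusted p 0.00394), and by 0.39 (adjusted p 0.000313) without that library. Ntrk3 had 30.3, 36.4 and 38.0 CPM under nZFP, against 13.6, 28.0 and 33.0 CPM under DBD, and these ranges overlapped. Ntrk3 rose by 0.40 (SE 0.09, adjusted p 0.00227), and by 0.28 (adjusted p 0.00279) without the library.

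Neither call held in every design. With the mouse as a block, which compares hemispheres of the same animal, the 2M_6M values were 0.36 for Ntrk3 (adjusted p 0.0707) and 0.52 for Sorcs2 (0.129). With Estop in place of DBD as the control they were 0.21 for Ntrk3 (0.165) and 0.23 for Sorcs2 (0.369). Both contrasts share the nZFP libraries. In the mouse block, some zQ175 mice of 2M_6M carried nZFP and DBD, while others carried either of them with Estop.

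Elsewhere the Sorcs2 differences of nZFP minus DBD in zQ175 were 0.16, 0.19, -0.02 and 0.47 in 2M_8M, 6M_8M, 6M_10M and 6M_12M, and those of Ntrk3 were 0.20, 0.09, -0.10 and 0.28. None of these passed, although with the mouse as a block Sorcs2 did in 6M_12M (0.33, adjusted p 0.0186). The averages were 0.27 for Sorcs2 (SE 0.08, adjusted p 0.00963) and 0.17 for Ntrk3 (SE 0.06, adjusted p 0.0199), where 8.61% of all genes were called higher. With Estop as the control the averages were 0.23 for Sorcs2 (adjusted p 0.039) and 0.13 for Ntrk3 (adjusted p 0.104), where 6.88% of all genes were called higher. Sort1 averaged 0.10 (adjusted p 0.167), with 0.33 (adjusted p 0.0514) in 2M_6M, and its average was 0.11 (adjusted p 0.0365) without the outlying libraries. Ntrk2 averaged 0.01 (adjusted p 0.957), Ngfr -0.13 (0.307) and Bdnf -0.16 (SE 0.14, 0.506). Whether the 5 cohort effects differed was tested for the genotype contrasts under DBD and Estop and for this one, and no member was called (0 of 6 each, none at an unadjusted p under 0.05, smallest adjusted p 0.299), with 0.363%, 0.238% and 3.36% of all genes called. This test was not run in DESeq2.

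In WT striatum 1 of 30 tests passed, against 0.236%, 2.04%, 0.0625%, 0.297% and 0.206% of all genes called lower. Ngfr had 2.13, 2.63 and 4.16 CPM in WT nZFP 2M_8M, against 3.12, 4.13 and 5.56 CPM in WT DBD 2M_8M (n = 8 each). The groups overlapped, and the log2 difference was -0.59 (SE 0.17, adjusted p 0.0462). The call was lost with Estop as the control (-0.23, adjusted p 0.551), with no filter (adjusted p 0.0676), with the mouse as a block (-0.47, 0.0713) and when the length index entered the model (-0.43, 0.162). The WT average for Ngfr was -0.33 (SE 0.08, adjusted p 0.00176), with 1.51% of all genes called lower, and -0.13 (adjusted p 0.38) with Estop as the control. In 2M_8M Sorcs2 differed by -0.60 (adjusted p 0.0696), Ntrk2 by -0.34 (0.0533) and Ntrk3 by -0.35 (0.118) in the same contrast. The mean length index was -0.267 in WT nZFP 2M_8M, against 0.13 in WT DBD 2M_8M, and with it as a covariate these became -0.12, -0.12 and -0.08.

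The 2 control viruses differed for few members. In zQ175 Ngfr was higher under DBD than under Estop in 6M_10M, with 2.64, 3.06 and 3.54 CPM under DBD against 1.67, 2.02 and 2.71 CPM under Estop (n = 8 each). The ranges overlapped only at their ends, and the log2 difference was 0.54 (SE 0.11, adjusted p 0.0163), or 0.50 (adjusted p 0.0817) with the mouse as a block. It was the 1 call of 30, where 3.34%, 0.0824%, 0.0187%, 0.0631% and 0.0773% of all genes were called higher. In WT 0 of 30 were called (edgeR, 1 at an unadjusted p under 0.05, 0 in DESeq2, smallest adjusted p 0.573), with 0.108%, 0.196%, 0.188%, 0.669% and 0.167% of all genes called in either direction.

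Whether the repressor effect differed between genotypes was tested as an interaction. By cohort 0 of 30 member tests were called (edgeR, 6 at an unadjusted p under 0.05, 0 in DESeq2, smallest adjusted p 0.126), with 3.27%, 1.99%, 0.0%, 0.0505% and 0.0% of all genes called. With the mouse as a block 2 passed, both in 2M_8M: Sorcs2 at 0.72 (adjusted p 0.0225) and Ntrk3 at 0.49 (adjusted p 0.0475). With the length index in the model 5 passed, Sorcs2 and Ntrk3 in 2M_6M and 2M_8M and Ntrk2 in 2M_8M. In the average over cohorts Sorcs2 was called, at 0.37 (SE 0.11, adjusted p 0.0404), where 2.54% of all genes were called higher. The cohort values for Sorcs2 were 0.52, 0.76, 0.21, -0.08 and 0.49. In 6M_10M the zQ175 nZFP and WT DBD groups each hold a library with a low length index, and the value there includes both libraries. With no filter on low counts the average was 0.38 (adjusted p 0.0614). Ntrk3 averaged 0.22 (adjusted p 0.1), and 0.26 (adjusted p 0.0187) without the outlying libraries. In a contrast added after the data were seen, the genotype difference of Sorcs2 under nZFP minus that under Estop averaged 0.40 (SE 0.12, adjusted p 0.0231), where 2.79% of all genes were called higher. Males and females were also compared, a contrast added after the data were seen, and no member was called, where 11.4% of all genes were (0 of 6). Bdnf had the largest male minus female difference, 0.17 (SE 0.08, adjusted p 0.19).

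The counts of the long receptors moved with the length index of the library. Within groups, over the 233 libraries, the correlation of log2 CPM with the index was 0.895 for Sorcs2, 0.856 for Sort1, 0.849 for Ntrk3 and 0.801 for Ntrk2. It was 0.325 for Ngfr and -0.201 for Bdnf. These are descriptions over libraries that share depth, cohort and in part the animal. In 2M_6M the mean index was -0.184 in zQ175 DBD, against -0.021 in WT DBD, and it was 0.01 in zQ175 nZFP. Group means over all 30 groups lay between -0.267 and 0.208.

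With the index in the model 22 of 30 member tests passed between genotypes under DBD, where 30.2% of all gene tests over the 5 cohorts were called, against 19.8% without it. Under Estop 21 of 30 passed (31.3% of all gene tests, against 18.3% without it), and under nZFP 13 of 30 (20.0%, against 12.3%). For the repressor 6 of 30 passed in zQ175 (7.49%, against 6.49%) and 0 in WT (1.28%, against 0.911%). The shares of all genes called thus rose too. The averages under DBD then were -0.41 for Ntrk3, -0.56 for Sorcs2, -0.53 for Ngfr, -0.21 for Ntrk2, -0.19 for Sort1 and 0.44 for Bdnf. For the repressor in zQ175 the 2M_6M values became 0.42 for Sorcs2 (adjusted p 0.000106) and 0.29 for Ntrk3 (0.000356). In 2M_8M they became 0.40 for Sorcs2 (4.06e-06) and 0.33 for Ntrk3 (0.012).

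**Figure D5:**
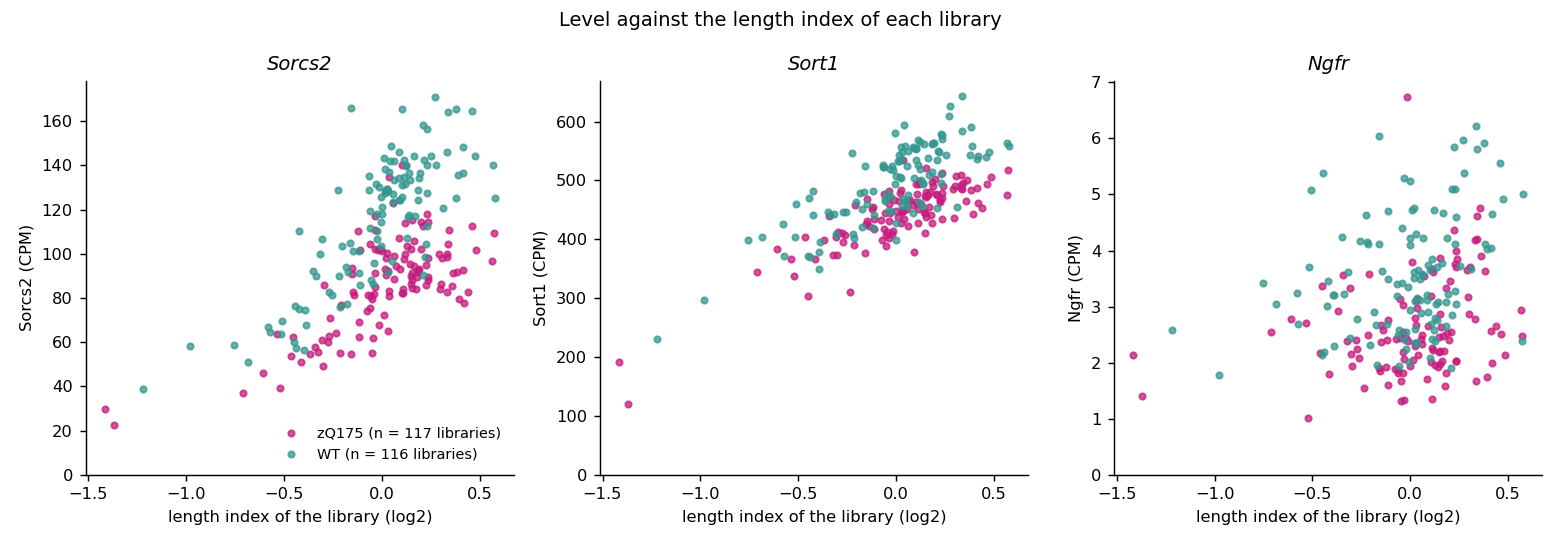
Normalised CPM of Sorcs2, Sort1 and Ngfr against the length index of each library, for 117 zQ175 and 116 WT libraries. Sorcs2 and Sort1 follow the index (within-group correlations 0.895 and 0.856) while Ngfr follows it less (0.325).

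The receptors also moved with each other. Over the 30 group means Ntrk3 and Sorcs2 had a correlation of 0.945, Ntrk3 and Sort1 0.876, Sorcs2 and Sort1 0.823, and Ntrk2 and Ntrk3 0.816. Ngfr and Sorcs2, the partners in proneurotrophin binding, had 0.47. Within groups the same pairs had 0.836, 0.795, 0.875, 0.766 and 0.363 over the 233 libraries. Sorcs2, Sort1, Ntrk3 and Ntrk2 each followed the length index within groups as well (0.895, 0.856, 0.849 and 0.801). The within-group values are thus no separate sign of a likeness between the receptors, and the part of the index in them was not tested. Bdnf had negative correlations with all 5 receptors over the group means, the furthest from 0 being -0.409 with Ntrk3.

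Among all genes tested, those whose 30 group means followed Sorcs2 most closely were Osbp2 (correlation 0.984), Slc8a3 (0.975) and Grm4 (0.969). Ntrk3 was followed by Hecw2 (0.956), Grm4 (0.951) and Slc41a1 (0.951), so that Grm4, a metabotropic glutamate receptor, stood near both. Sort1 was followed by Ptk2b (0.951), Gfod1 (0.948) and Xxylt1 (0.94). Ntrk2 was followed by Slc1a2 (0.903), the main glutamate transporter of astrocytes, Caprin1 (0.886) and Ddah1 (0.863). Ngfr was followed by Por (0.878), Scd2 (0.86) and Pcx (0.842), and Bdnf by Rasal1 (0.808), Cpne6 (0.798) and Pde1a (0.776). The neighbours of Bdnf had lower correlations than those of the 5 receptors, and Bdnf also had the lowest counts of the 6 genes.

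The lists of other pathway genes are described under DBD, where 24.9% of all genes were called higher and 22.0% lower in the average over cohorts. Of 29 Trk adaptors and effectors 2 were higher and 8 lower in the average, with a median of -0.01 against 0.01 over all genes. In the 5 cohorts 1, 0, 0, 0 and 1 of them were higher and 4, 2, 1, 4 and 5 lower. Hras, a GTPase downstream of Trk receptors, fell in 4 cohorts, at -0.56 in 2M_8M, -0.33 in 6M_8M, -0.67 in 6M_10M and -0.52 in 6M_12M. Shc2, an adaptor for phosphorylated Trk receptors, fell in 4, at -0.30 in 2M_6M, -0.23 in 2M_8M, -0.27 in 6M_10M and -0.25 in 6M_12M. The kinase Mapk3 fell in 6M_10M (-0.19) and 6M_12M (-0.28).

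Of 15 p75 co-receptors and adaptors tested, 6 were higher and 6 lower in the average, with a median of -0.04. Rtn4r, the Nogo receptor that pairs with p75, fell by 0.87 in 2M_6M, by 0.87 in 2M_8M, by 0.87 in 6M_10M and by 0.86 in 6M_12M, and was at -0.32 (adjusted p 0.499) in 6M_8M. Maged1, a cytoplasmic partner of p75, rose in all 5 cohorts, by 0.19 to 0.31. Traf4 rose in 2M_6M (0.28), 2M_8M (0.25) and 6M_12M (0.34). Of 13 genes of neurotrophin processing and transport 3 were higher and 5 lower in the average, with a median of 0.05. Hap1, a huntingtin partner in axonal transport of BDNF, rose by 0.48 in 2M_6M, 0.65 in 2M_8M, 0.74 in 6M_10M and 0.84 in 6M_12M, and was at 0.59 (adjusted p 0.148) in 6M_8M. Kif5c, a kinesin heavy chain, fell in 2M_6M (-0.30), 6M_8M (-0.22) and 6M_10M (-0.21), and the prohormone convertase Pcsk2 fell in 2M_6M (-0.21), 6M_10M (-0.23) and 6M_12M (-0.27).

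Of 18 regulators of Bdnf transcription 4 were higher and 6 lower in the average, with a median of -0.05. The histone deacetylase Hdac5 fell in the first 4 cohorts, at -0.36, -0.35, -0.22 and -0.31, and Srf fell in the same 4, at -0.36, -0.22, -0.33 and -0.39. Creb1 rose in 2M_6M (0.17), 2M_8M (0.26), 6M_10M (0.20) and 6M_12M (0.25). Of 19 other neurotrophic factors and receptors tested in the average 1 was higher and 6 lower. Nrtn (neurturin) fell by 1.18 in 2M_8M, 0.67 in 6M_8M, 1.52 in 6M_10M and 1.09 in 6M_12M.

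Genes induced by neurotrophins and activity, a list of 21, were lower in zQ175. Under DBD 11, 6, 7, 9 and 5 of them were lower in the 5 cohorts and none higher, and 17 were lower in the average, with a median of -0.39 against 0.01 for all genes. Under Estop 8, 5, 15, 11 and 6 were lower and none higher. Egr2 differed by -2.38, -1.75, -1.67, -2.39 and -2.13 under DBD, and Homer1 by -1.08, -0.76, -0.80, -0.86 and -0.71, all of them called. Spry2, an inhibitor of receptor tyrosine kinase signalling, differed by -0.52, -0.45, -0.47, -0.64 and -0.49, also called in each. Penk (-1.05 to -1.52) is on this list and among the medium spiny neuron markers.

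Under nZFP in zQ175 part of this list was higher than under DBD: 4, 4, 0, 1 and 1 genes in the 5 cohorts and 8 in the average, none lower, with an average median of 0.21 against -0.01 for all genes. Egr2 rose by 1.69 in 2M_6M and 1.43 in 2M_8M, Egr3 by 0.76 and 0.38, and Homer1 by 0.45 and 0.38. Hap1 fell by 0.47 in 2M_6M, 0.53 in 2M_8M and 0.35 in 6M_10M, and Nrtn rose by 1.42 in 2M_8M. Of the Trk effectors 5 rose and 1 fell in 2M_6M, among them Akt1 (0.28), the phosphatase Ptpn11 (0.31) and Mapk3 (0.19). Of the Bdnf regulators 4 rose and 1 fell there, with Hdac5 at 0.26, Crtc1 at 0.38, Srf at 0.31 and Usf1 at -0.18. In WT 0 of the 21 activity genes were called under nZFP in any cohort or in the average. Of all gene tests over the 5 cohorts only 0.911% were called in that contrast in either direction, so a count of 0 lies near that share.

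Medium spiny neuron markers moved in the same contrasts. Under DBD 9 of the 10 were lower in zQ175 in each cohort, and 1 was higher in 2M_6M, with cohort medians between -0.93 and -0.69. Their summed level had medians of 5678 to 6409 CPM in the zQ175 DBD groups (4259 to 7637 CPM over libraries), against 9880 to 12470 CPM in the WT DBD groups (6058 to 14680 CPM over libraries). In zQ175 nZFP the medians were 10530, 9539, 6409, 7612 and 7975 CPM in the 5 cohorts, against 6409, 6404, 5678, 6092 and 6265 CPM in zQ175 DBD. Of the 10 markers 9, 9, 0, 6 and 5 were called higher under nZFP, and 1 was called lower in 2M_6M. No marker of this list was at 0 in every library of any group. Astrocyte markers, of which 7 of 9 were lower in zQ175 in the average under DBD with a median of -0.17, are given because astrocytes express Ntrk2. Of 7 cholinergic markers 3 were lower and 1 higher, with a median of -0.11. Which cells of this tissue hold the Ngfr RNA was not tested. Summed cholinergic markers ranged over 96.9 to 140 CPM in zQ175 DBD libraries, against 103 to 152 CPM in WT DBD libraries. The part of these cell populations in the receptor differences was not tested.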

How the data were processed

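PolyA RNA of striatal hemispheres was extracted with the Qiagen RNeasy Micro kit and libraries were made with the NEB Next Ultra kit, per the labels' protocols. The series' design text calls the sequencing stranded. The authors deposited expected counts per gene made with RSEM on GRCm38, per the submitters' processing notes, without versions, and the annotation release is not given in the sources used here. The table had 41135 entries, of which 6 were viral vector sequences, left out of library sizes and tests, and 90.3% of its values were whole. Counts were rounded to whole numbers. A further deposited table sums to 1000000 per library, the scale of TPM, and was used only to compare levels between genes. Every per-sample column was matched to 1 sample by name, and no 2 replicates held identical values.

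Groups came from the labels. Low genes were removed with filterByExpr, and the test was that of edgeR 4.0.16, run in R 4.3.3 (TMM normalisation, robust quasi-likelihood F-test, sex as a covariate). Each cohort had 1 fit, with 15673, 15786, 16000, 15840 and 15523 genes tested from 2M_6M to 6M_12M in the order of the text. Averages over cohorts and tests between cohorts used a joint model of the 30 groups, in which 16792 genes were tested. Benjamini-Hochberg adjustment ran over all genes tested, the threshold was an adjusted p of 0.05, and a standard error is the log2 difference divided by the square root of F. Libraries of the same mouse were treated as separate samples in these fits. CPM values use the TMM factors of the 30-group fit. The procedure was tested on simulated counts with known changes. The alternatives were DESeq2 1.42.0, DESeq2-type (RLE) size factors, no filter, hemisphere or the length index (13074 genes with a mean count of at least 50) as a covariate, the replicate number or the mouse as a block, Estop as the control virus, and leaving out the outlying libraries or those whose vector entries went against the label. The label check used the repressor entry (321 and 480 CPM in the 2 WT DBD libraries of 6M_8M, 8.55 CPM in zQ175 nZFP replicate 5) and the WPRE entry (59.2 CPM in WT DBD replicate 6 of 2M_6M, below the 114 CPM of the highest Estop library).

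Of the 113 mice with 2 libraries, 59 carry the same replicate number in both and 54 carry different numbers, so the numbers do not pair all libraries by animal and the mouse was used for that. Same-numbered libraries deviated together most evenly for DBD against Estop in 6M_12M (lowest correlation of a pair 0.201 in zQ175 and 0.106 in WT). In the other comparisons the lowest correlation of a pair was at most 0.05. Hemispheres of the same mouse had a median correlation of deviations of 0.169 (113 pairs), against -0.003 between mice.

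The members and the gene lists were chosen with earlier results of these data known. The text names the members, Htt, for each list up to 4 genes that passed in the most cohorts, with ties broken by the p-value, and for each member the 3 genes with the most similar group means. Some results under this rule are not reported here. Gene positions are from GENCODE mouse release 21 on GRCm38, and promoter windows are from RefSeq on GRCm38.p6. P-values measure the spread between libraries, and counting error is largest for Bdnf, Ntf3 and Ngfr.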

Additional observations from a re-analysis of the deposited data

Results flagged for a closer look

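In 34 of 210 combinations of gene and group, the highest or lowest library lay farther from its neighbour than Dixon's 95% criterion allows. Chance flags about 1 in 20 groups where values are normally distributed and independent. Ntf3, at 0 in 76 libraries, is not so distributed, and flags of 1 library over correlated genes are not independent. The number flagged can therefore not be set against that rate. The same libraries account for many of the flagged combinations. In zQ175 DBD replicate 3 of 2M_6M, Ntrk3 (13.62 CPM), Sort1 (120.8 CPM) and Sorcs2 (22.72 CPM) were lowest and Bdnf (1.31 CPM) was highest. In zQ175 nZFP replicate 2 of 6M_10M, Ntrk3 (12.5 CPM), Sort1 (191.5 CPM) and Sorcs2 (29.95 CPM) were lowest and Bdnf (0.8992 CPM) was highest. In WT DBD replicate 2 of 6M_10M, Ntrk2 (309.6 CPM), Ntrk3 (23.04 CPM), Sort1 (231.0 CPM) and Sorcs2 (38.98 CPM) were lowest. These are the 3 libraries with the lowest length index. The report gives many results of their groups, but not all, with and without them. In WT nZFP replicate 8 of 6M_8M, whose index was -0.98, Ntrk2 (317.6 CPM) and Sort1 (296.2 CPM) were lowest.

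Ntrk2 was also lowest in zQ175 Estop replicate 3 of 2M_6M (381.7 CPM). Ntrk3 was highest in WT nZFP replicate 4 of 2M_6M (49.86 CPM) and in zQ175 DBD replicate 5 of 2M_8M (36.55 CPM). Sort1 was lowest in zQ175 DBD replicate 8 of 6M_8M (311.2 CPM) and in WT nZFP replicate 1 of 2M_6M (418.8 CPM). Ngfr was highest in replicate 1 of zQ175 DBD (6.736 CPM) and of zQ175 Estop (3.798 CPM) and in replicate 5 of zQ175 nZFP (3.869 CPM), all of 6M_8M, and in zQ175 nZFP replicate 2 of 2M_8M (3.36 CPM). The libraries labelled replicate 1 of zQ175 DBD and zQ175 Estop in 6M_8M are hemispheres of the same mouse. The library labelled zQ175 nZFP replicate 5 of 6M_8M is one of those whose vector entries went against the label.

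Among the ligands, Bdnf was highest in zQ175 DBD replicate 3 of 2M_8M (1.186 CPM) and lowest in zQ175 DBD replicate 4 of 6M_10M (0.1397 CPM). Ntf3 was highest, on few counts, in 9 libraries. In 6M_8M these were zQ175 nZFP replicate 1 (0.3925 CPM), zQ175 DBD replicate 8 (0.7602 CPM), WT nZFP replicate 3 (0.3414 CPM), WT DBD replicate 4 (0.2713 CPM) and WT Estop replicate 2 (1.249 CPM). In 6M_10M it was WT nZFP replicate 1 (0.1435 CPM). In 6M_12M these were zQ175 nZFP replicate 5 (0.1283 CPM), WT DBD replicate 7 (0.1037 CPM) and WT Estop replicate 4 (0.1799 CPM).

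Sorcs2 was flagged because its effects differed between groups by a test of the difference itself. The repressor effect in zQ175 minus that in WT averaged 0.3739 on the log2 scale over the cohorts (adjusted p 0.0404, and 0.0614 with no filter on low counts). In a contrast added after the data were seen, the genotype difference of Sorcs2 under nZFP minus that under Estop averaged 0.3965 (adjusted p 0.0231), where 2.79% of all genes were called higher.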

How the results depend on the processing

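Of the 30 tests of the members by cohort in each comparison, the numbers called moved by more than 1.5 times as follows, and the cause was not tested. Shares in parentheses are of all gene tests over the 5 cohorts called under the alternative and, where a second is given, in the analysis of the report. With the length index as a covariate 22, against 13, were called between genotypes under DBD (30.2% and 19.8%), 21, against 10, under Estop (31.3% and 18.3%), 13, against 3, under nZFP (20.0% and 12.3%), 6, against 2, for the repressor in zQ175 (7.49% and 6.49%), 0, against 1, in WT (1.28% and 0.911%) and 5, against 0, for the interaction (2.74% and 1.06%). With the replicate block 17 were called under Estop (21.5% and 18.3%), 6 for the repressor in zQ175 (9.65% and 6.49%) and 2 in WT (1.34% and 0.911%). With the mouse as a block 1 was called for the repressor in zQ175 (2.91% and 6.49%), 0 in WT (0.463% and 0.911%), 0 for DBD against Estop in zQ175 (0.377% under the block) and 2 for the interaction (0.976% and 1.06%). With Estop as the control 0 were called for the repressor in zQ175 (3.0% and 6.49%) and 0 in WT (0.53% and 0.911%). In WT it was also 0 with no filter (0.345%), 2 with hemisphere as a covariate (0.965%) and 3 with DESeq2 (1.81%). No member changed direction where it was called, under any alternative run. Without the outlying libraries 10 single results newly passed and 0 were lost, and without the libraries whose vector entries went against their labels 2 newly passed and 0 were lost. In the replicate block 22 newly passed, among them Bdnf under DBD in 2M_6M (0.89, adjusted p 0.0391). Of the 113 mice with 2 libraries, 59 carry the same replicate number in both and 54 do not, so the number marks the animal in part. The mouse as a block was not run in the fit of all 30 groups, so averages have no such check. Depth limits Bdnf (median 15 counts per library) and Ntf3 (median 1 count), while the other members had medians of 112 counts or more.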

Other observations

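Among cell type markers not described above, 5 of 6 microglial markers were lower in zQ175 than in WT in the average under DBD (median -0.15), as were 4 of 6 endothelial markers (median -0.16). Of 7 oligodendrocyte markers 3 were higher and 4 lower (median -0.17), and of 5 oligodendrocyte precursor markers 1 was higher and 0 lower (median 0.03). Of all genes 22.0% were called lower and 24.9% higher in that average. For the repressor in zQ175, 3 of 6 microglial markers and 3 of 7 markers of interneurons other than cholinergic ones were higher in the average and 0 were lower. There 8.61% of all genes were called higher.

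The neurturin gene Nrtn, a ligand of another neurotrophic family, also rose under nZFP in WT striatum, by 0.67 in 2M_8M and 1.02 in 6M_8M on the log2 scale. In WT 2M_8M the sortilin relatives Sorcs3 (-0.71) and Sorcs1 (-0.37) fell under nZFP, in the groups whose mean length index differed.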
